A study of Rattus norvegicus with 12 samples.

Results

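The interferon-induced genes are 41 listed rat genes that cells switch on when they receive an interferon signal, among them Isg15, Usp18, the Oas, Ifit, Mx, Gbp and Ifitm families and the transcription factors that drive them. A gene was counted as found where a probe of the array carries one of its RefSeq accessions, and 37 of the 41 were found, of 15159 genes named in all. Zbp1, Herc6, Samhd1 and Xaf1 matched no probe and are not analysed here. Of the 37, 25 were well above background on all 12 arrays, 10 on between 1 and 11 arrays, and Oasl and Ifit1 on none, which leaves 35 with a measured level somewhere. The list goes by gene name and its rule uses no measured value, although earlier results of these data were known when it was chosen.

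RNA of female rats aged 8 weeks was measured after MBP84-104, a peptide of myelin basic protein (50 µg in 5 µL PBS), had been injected into the left sciatic nerve. Wild-type rats were Sprague-Dawley and were sampled, per the labels, after 12 days. Athymic nude rats (Hsd:RH-Foxn1rnu), which carry a Foxn1 mutation and are deficient in T cells, were sampled, per the labels, after 7 days. In each rat type 1 array each held the injected left nerve, the right nerve that received PBS, the left and the right lumbar dorsal root ganglia (DRG), the dorsal cord of the lumbar enlargement, and the dorsal cord rostral to it, and each array was hybridized with RNA pooled from 3 rats. The paper instead gives 1 week for both rat types, and names heterozygous rats of the nude stock as controls, so that day, strain and genotype cannot be told apart between the rat types. With 1 array per group no value has a replicate check, no p-value is given, and every comparison describes these arrays.

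Interferons are secreted proteins that bind paired receptors on neighboring cells. Type I interferons act through the kinases JAK1 and TYK2 on a complex that holds STAT2 and IRF9 and binds the interferon-stimulated response element (ISRE) of target genes. Interferon-gamma, a product of T cells and natural killer cells, acts on a different element, GAS. The targets code for sensors of foreign nucleic acid, proteins that block viral replication, and brakes on the pathway itself, and in injured peripheral nerve macrophages and Schwann cells are known to respond to these signals.

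Both elements were looked for in the promoters of the group. RefSeq promoters of GRCr8 were at hand for 29 of the 37 genes, and the 250 bases before each annotated start were searched on both strands for the ISRE core GAAANNGAAA and for the GAS core TTCNNNGAA, which reads the same on both strands. The ISRE core was in 19 of the 29 windows (65.5%), against 3.29% of 27457 rat promoters, and in 15 of them it lay within the last 100 bases. The GAS core was in 9 of the 29 (31.0%), against 7.52% of all promoters, and 6 genes held both, and these overlapped only in Bst2. Stat2, Oasl, Mx1, Cmpk2, Parp9, Dtx3l and Sp100 held neither in this window. Of the 10 genes with the largest ratio in the wild-type nerve 7 had a promoter here and 5 of these held the ISRE core. The last 160 bases before the start of these 5 read as follows, 5′ to 3′ on the strand of the gene, with the ISRE core in capitals. Rsad2 lies at chr6:48788121-48788280 (minus strand), Oas1a at chr12:41330306-41330465 (plus strand), Ifit3 at chr1:241527166-241527325 (plus strand), Oasl2 at chr12:47383186-47383345 (minus strand) and Irf7 at chr1:205800024-205800183 (minus strand). In Oas1a 2 cores overlap and were capitalized as 1 run.
Rsad2: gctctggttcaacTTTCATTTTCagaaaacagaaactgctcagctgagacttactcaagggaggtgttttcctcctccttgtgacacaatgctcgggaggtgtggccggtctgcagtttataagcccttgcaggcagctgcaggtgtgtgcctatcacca
Oas1a: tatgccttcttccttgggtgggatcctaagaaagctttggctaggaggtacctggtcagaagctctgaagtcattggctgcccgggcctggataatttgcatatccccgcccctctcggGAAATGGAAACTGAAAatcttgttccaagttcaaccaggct
Ifit3: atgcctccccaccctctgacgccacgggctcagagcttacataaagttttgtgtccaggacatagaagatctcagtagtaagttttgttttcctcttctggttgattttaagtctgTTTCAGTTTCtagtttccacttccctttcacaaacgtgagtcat
Oasl2: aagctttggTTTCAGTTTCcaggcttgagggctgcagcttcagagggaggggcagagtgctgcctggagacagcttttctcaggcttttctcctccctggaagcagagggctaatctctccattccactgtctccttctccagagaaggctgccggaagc
Irf7: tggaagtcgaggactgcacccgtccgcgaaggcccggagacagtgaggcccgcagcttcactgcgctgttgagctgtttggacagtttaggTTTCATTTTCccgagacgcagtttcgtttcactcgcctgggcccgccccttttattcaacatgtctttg

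A match of these letters is a description of the sequence and not of binding. Among genes with a promoter and a wild-type nerve ratio, the 19 with the ISRE core had a median log2 ratio of 0.56 in that nerve and the 9 without it 0.90. Neither set holds the found genes with no promoter at hand, Dhx58, Adar, Ifit1, Ifit2, Mx2, Isg15, Usp18 and Ifitm1. Of these Isg15, Usp18 and Dhx58 are among the 10 with the largest ratio there. Below, a level is the log2 spot signal of a gene's brightest probe minus the median probe of its array, a ratio is the difference of the levels of 2 arrays, and a gene is called higher or lower where the ratio is at least 2-fold. A gene needs to be well above background on at least 1 of the 2 arrays, and where it is so on only 1, the fold is a bound, taken against the higher of the other array's own value and its lowest measurable signal (its floor). No ratio is given where that value lies on the wrong side of the measured one. Levels are compared within a gene, never between genes.

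In the wild-type rats the interferon-induced genes were higher in the injected nerve as a group. Of 34 with a ratio 32 lay above 0 and 15 were at least 2-fold higher (44.1%), where 4.68% of 10213 genes were, and none was at least 2-fold lower, where 4.08% of all genes were. Their median log2 ratio was 0.86 beside -0.05 over all genes. After normexp background correction, which shrinks the ratios of dim spots, 8 genes were at least 2-fold higher, beside 1.97% of all genes. Under the alternative settings the lowest wild-type log2 ratio was 0.51 for Irf8, 0.53 for Parp9, 0.65 for Dhx58 and 0.66 for Cmpk2. It was 0.92 for Ifit3 and for Oasl2 and 0.94 for Usp18. All of these lie under 2-fold, so the folds of these genes below, bounds included, hold for the processing used here. In the nude rats 3 of 32 were at least 2-fold higher, beside 7.52% of 9456 genes, and 1 was lower, beside 13.5%. After normexp these counts were 0 higher, beside 0.289% of all genes, and 9 lower, beside 43.7%. The median of all genes in the nude nerve was then -0.86. No gene thus kept its higher call in nude rats under normexp. Without normexp the group's median in the nude nerve was -0.09 beside -0.38 over all genes. The array of the injected nude nerve is the dimmest of the 12, with 27 of the 37 genes well above background, against 28 to 35 on the others, and its part in the shift of all genes was not tested. With the 75th percentile in place of the median, the all-gene median of the nude nerve moved from -0.38 to -0.11, and the calls over all genes turned from 7.52% higher and 13.5% lower to 12.2% higher and 5.74% lower. Nude nerve ratios are therefore read against the median of all genes.

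**Figure D1:**
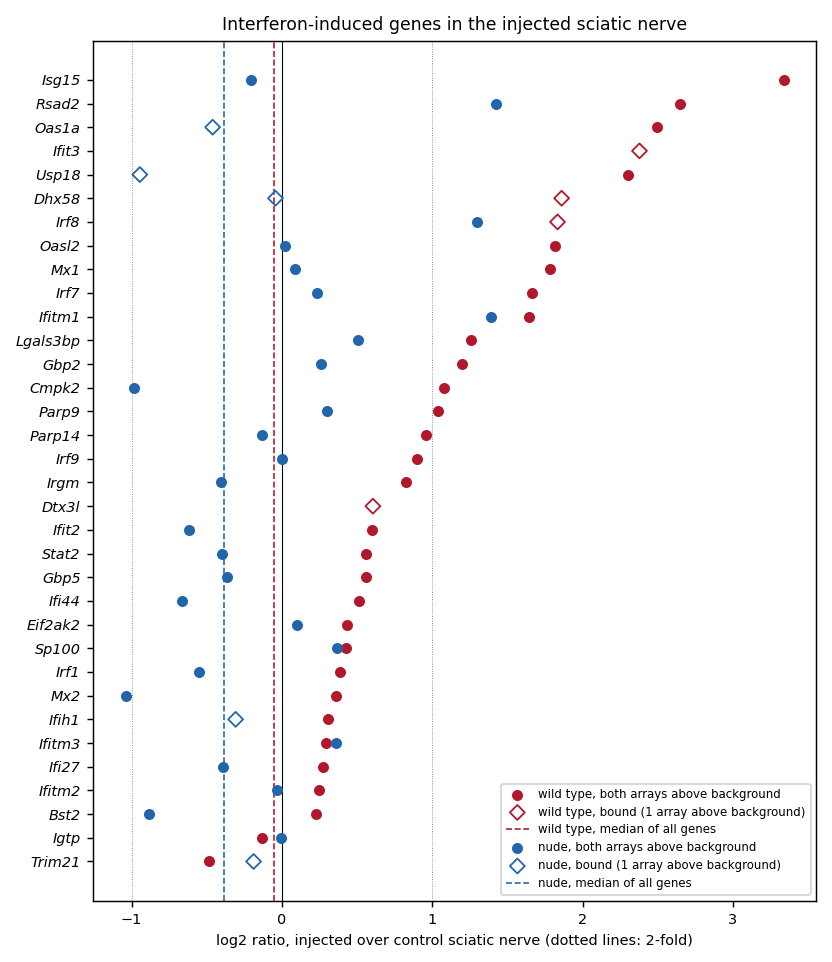
Log2 ratio of injected over control sciatic nerve (x axis) for the 34 interferon-induced genes with a wild-type ratio (y axis), in wild-type (red) and nude rats (blue), 1 array per group. Diamonds are bounds, dashed lines the medians of all genes (-0.05 and -0.38). The red points of Isg15, Oas1a and Usp18 lie above 2 while their blue points lie below 0.

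Isg15 had the largest ratio, and the enzyme that removes it was also among the 10 largest. Isg15, a ubiquitin-like protein that is attached to other proteins, had a level of 6.19 in the injected and 2.86 in the control nerve of wild-type rats, and 3.01 and 3.21 in those of nude rats. On the DRG arrays its levels were 3.26 (left) and 4.26 (right) in wild type and 3.45 and 3.57 in nude, and on the cord arrays 2.29 (lumbar) and 2.81 (rostral) in wild type and 2.77 and 3.23 in nude. The injected wild-type nerve thus lay above every other array. It was 10.1-fold over its control (log2 ratio 3.34, with a standard error from the spots within the arrays of 0.02), and between 3.09 and 3.41 under the 7 alternative settings. Usp18, the protease that takes Isg15 off again and blocks the type I receptor, had levels of 1.44 and -0.86 in the injected and control wild-type nerve, a 4.94-fold difference. In the nude nerves Usp18 was at 0.32 on the control side and not well above background on the injected side, at least 1.92-fold lower there. A second Usp18 probe gave log2 ratios of 1.70 in wild type and -0.50 in nude. Both genes thus had ratios of opposite sign in the 2 rat types with the processing used here. The sign of the nude ratio of Isg15 is not settled, since the alternative settings gave between -0.93 and 0.10. Against the median of all genes the nude ratio of Isg15 lies above it (0.18), and the difference has no test.

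Among the OAS enzymes, which make the oligoadenylates that activate RNase L, Oas1a had levels of 1.83 in the injected and -0.67 in the control wild-type nerve, and the ratio was 5.64-fold. In the nude nerves it was at 0.11 in the control and not well above background in the injected nerve. Oasl2, a relative of Oas1a, had levels of 1.70 and -0.12 in wild type and of 0.35 and 0.33 in nude, so that the wild-type ratio was 3.53-fold and the nude ratio 1.01-fold. Both genes had their highest level of the 12 arrays in the injected wild-type nerve.

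The IFIT and MX proteins bind foreign RNA and viral capsids. Ifit3 was well above background in the injected wild-type nerve (1.14) and not in its control, at least 5.20-fold higher, and it gave no ratio in the nude nerves, where only the control side was measurable (-0.67) and lay under the floor of the injected side. Mx1 had levels of 4.95 and 3.17 in wild-type nerves and of 3.72 and 3.64 in those of nude rats, a 3.45-fold and a 1.06-fold difference. Ifit2 (log2 ratio 0.60) and Mx2 (0.36) lay within 2-fold in wild type. In nude rats Mx2 was the 1 gene at least 2-fold lower, with levels of 5.98 in the injected and 7.01 in the control nerve, or 0.65 on the log2 scale under the median of all genes (-0.65), and Ifit2 was at 1.62 and 2.23.

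Rsad2 and Cmpk2 are neighbors on chromosome 6 that act on nucleotides, Rsad2 (viperin) by making a chain terminator of viral RNA synthesis and Cmpk2 as a mitochondrial kinase. Rsad2 was higher in the injected nerve of both rat types. Its levels were 2.26 and -0.38 in wild type, 6.26-fold apart, and 1.70 and 0.27 in nude, 2.69-fold apart. Cmpk2 was 2.11-fold higher in wild type (1.89 against 0.82), while in nude rats the injected nerve was at 0.44 and the control at 1.42, 0.60 under the median of all genes on the log2 scale (-0.60).

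Of the transcription factors, Irf7, which amplifies type I interferon production, had levels of 4.18 in the injected and 2.52 in the control wild-type nerve and of 3.38 and 3.14 in the nude nerves, a 3.16-fold and a 1.18-fold difference. The sign of the nude ratio is not settled, since the alternative settings gave between -0.59 and 0.54. Irf8, a factor of myeloid cells, was one of 3 genes at least 2-fold higher in the injected nerve of both rat types. Its level was 0.41 in the injected wild-type nerve and not well above background in the control, at least 3.56-fold higher, and in nude rats 0.00 and -1.30, 2.45-fold higher. Irf9 (log2 ratio 0.90), Stat2 (0.56) and Irf1 (0.39) lay above 0 in wild type within 2-fold. Irf1, a target of interferon-gamma, was at 4.23 in the injected and 4.78 in the control nude nerve, and its second probe gave 0.61 in wild type and -0.36 in nude.

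Of the sensors, Dhx58, an RNA helicase that tunes the response of its relatives, was measurable in the injected (0.81) but not in the control wild-type nerve, at least 3.63-fold higher. In nude rats it was measurable on the control side alone, at -0.58. Eif2ak2, the kinase that stops translation on double-stranded RNA, and Ifih1, which senses long double-stranded RNA, had wild-type log2 ratios of 0.43 and 0.30, and Adar, an RNA-editing enzyme, was measurable on no nerve array. The second Eif2ak2 probe gave 0.46 in wild type but -0.78 in nude, where the first gave 0.10.

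**Figure D2:**
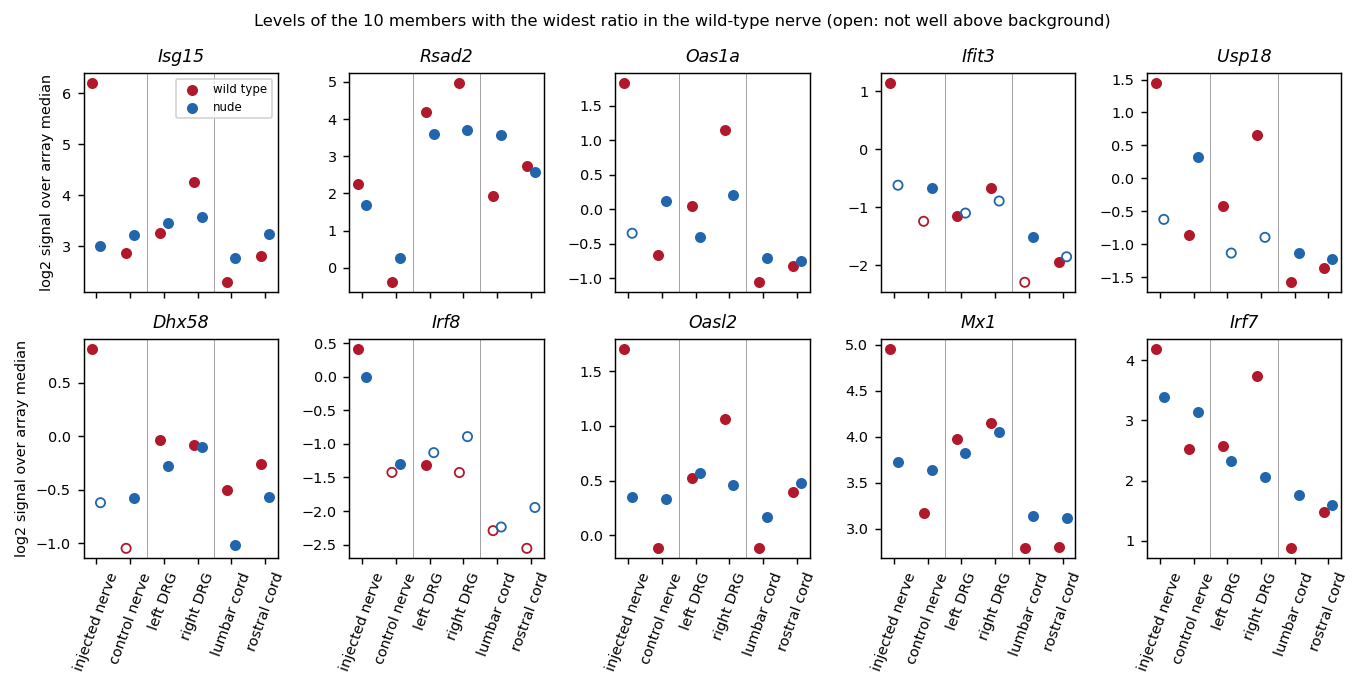
Levels (y axis, log2 signal over the array median) of the 10 genes with the largest wild-type nerve ratio on each of the 12 arrays (x axis), wild type in red and nude in blue. Open circles were not well above background. For Isg15 the injected wild-type nerve is at 6.19 and no other array is above 4.26, while Rsad2 is highest on the DRG arrays.

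Among the membrane proteins, Ifitm1, which keeps viruses from fusing with the cell membrane, was higher in the injected nerve of both rat types, with levels of 7.91 and 6.27 in wild type (3.12-fold) and of 7.49 and 6.10 in nude (2.62-fold). Its relatives Ifitm2 and Ifitm3 had wild-type log2 ratios of 0.25 and 0.29 and nude ratios of -0.03 and 0.36, the nude ones of either sign across the settings. Bst2 (tetherin), which holds virus particles at the cell surface, had levels of 2.59 and 2.36 in the wild-type nerves and of 1.37 and 2.26 in the nude nerves.

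Of the GTPases that attack microbes in vacuoles, Gbp2 was 2.29-fold over its control in wild-type rats, and Irgm (log2 ratio 0.82) and Gbp5 (0.56) lay within 2-fold. Igtp was at -0.13, but its second probe, of 1 spot, was at 0.73, so the 2 probes disagree in sign. The partners Parp9 and Dtx3l, a mono-ADP-ribosyltransferase and a ubiquitin ligase, were 2.06-fold and at least 1.52-fold higher, and Parp14 had a log2 ratio of 0.96. Among the remaining genes, Lgals3bp, a secreted binding protein of galectin-3, was 2.39-fold higher in wild type and at 0.51 in nude. Ifi44 (0.52), Sp100 (0.43) and Ifi27 (0.27) lay above 0 in wild type and Trim21 below it (-0.48). In nude rats Ifi44 was at 3.79 in the injected and 4.46 in the control nerve.

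Set side by side, 32 genes had a nerve ratio in both rat types. Of these 29 had the larger ratio in wild type, where 74.9% of all genes did, and in 15 (46.9%) it was at least 2-fold larger, beside 5.1% of 9399 genes. The median difference was 0.95 on the log2 scale beside 0.35 over all genes. The largest differences belonged to Isg15 (3.54), Usp18 (3.25), Oas1a (2.96), Cmpk2 (2.06), Dhx58 (1.90), Oasl2 (1.80) and Mx1 (1.70). The smallest belonged to Trim21 (-0.29), Igtp (-0.12), Ifitm3 (-0.07) and Sp100 (0.06). That of Trim21 is a lower bound, so its rank is not settled. The second Igtp probe gave ratios of 0.73 in wild type and -0.06 in nude, a difference of the other sign. Of the 15 genes at least 2-fold higher in the wild-type nerve, 14 had a nude ratio. In nude rats 3 of them (Irf8, Rsad2 and Ifitm1) were at least 2-fold higher as well, though not under every setting (lowest log2 ratios 0.42, 0.44 and 0.21), and 3 (Oas1a, Usp18 and Cmpk2) lay under the median of all genes. Rat type runs with day and strain here, and the dim nude array sets bounds for Usp18, Oas1a, Dhx58, Ifih1 and Trim21.

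The genes above and around these targets were read from a list of 42, of which 33 were found and 8 were well above background on no array. Of the ligands, the probes of Ifnb1, Ifng, Ifnk and Ifna5 were well above background on none of the 12 arrays, and Ifna4 was on all 12, at levels from 0.48 to 2.16, with log2 ratios of 0.35 in nerves of wild-type and 0.77 in those of nude rats. All 4 measured receptor chains lay above 0 in the wild-type nerve, the interferon-gamma receptor chains Ifngr2 at 0.93 and Ifngr1 at 0.83, the type I chain Ifnar1 at 0.65 and Il10rb, which serves type III interferons, at 0.64. In nude rats they had a median of -0.19, and all 4 lay above the median of all genes (-0.38). Of the 5 brakes with a ratio in the wild-type nerve, 3 lay above 0 and 2 below. They ranged from -0.88 (Ptpn11) to 0.92 (Ptpn2, a phosphatase of JAK and STAT proteins), with Socs3 at 0.60. Socs1, measurable only in the control nude nerve among the nerves, gave no ratio. In all, 2 of 22 pathway genes (9.09%) were at least 2-fold higher in the wild-type nerve, the RNA-sensing receptors Tlr7 (1.09) and Tlr8 (1.10), beside 4.68% of all genes, and none was lower, beside 4.08%. In the nude nerve 1 of 21 (4.76%) was higher (Tlr8, 1.16), a smaller share than the 7.52% of all genes, and Mavs, the adaptor of RNA helicases, was at -1.08.

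Markers of immune cells moved in the same arrays. All 11 macrophage markers lay above 0 in the wild-type nerve (median 0.61, with Cd68 and Cd14 at 1.27 each), and in the nude nerve their median was 0.09. Read against all genes these medians were 0.67 and 0.48 higher, with 10 of the 11 above the median of all genes in nude rats. Their summed signal, in multiples of the median probe of the array, was 1454 in the injected and 1222 in the control wild-type nerve and 1187 and 1217 in the nude nerves. Of 10 T cell markers 7 had a wild-type ratio, from -0.12 (Cd3g) to 1.49 (Cd247) with a median of 0.39, and 3 had a nude ratio, Cd3d at 1.27, Cd8b at 0.87 and Cd3g at -0.56, while Cd3e, Cd5 and Lck were not well above background in any nerve. Summed over the T cell markers well above background on each array, the signal was 16.01 (7 markers) in the injected and 11.3 (5) in the control wild-type nerve and 10.6 (3) and 8.01 (5) in the nude nerves, and Cd3d was well above background on all 12 arrays, those of nude rats included. Of 6 natural killer cell markers 3 had a wild-type ratio, Nkg7 at 1.67, Prf1 at 0.93 or more and Gzma at -0.24, and 2 a nude ratio, Nkg7 at 1.29 and Gzma at 0.81. Ncr1 and Klrd1 were measurable nowhere. The sums over measured markers were 6.22 (3 markers) and 3.53 (2) in wild type and 6.03 (2) and 3.32 (3) in nude. The neutrophil markers S100a8 and S100a9 were at 3.61 or more and 3.44 in wild type and at 2.67 and 2.23 in nude. Summed in the same way, their list was at 11.6 (3 markers) and 0.60 (1, S100a9) in wild type. In nude it was at 6.37 (2) and 1.69 (3), so these sums hold different markers. With the other markers kept at no less than the array's floor, the sums were 12.2 and 2.08 in wild type and 8.39 and 2.13 in nude. In bulk tissue fewer cells of a type and less RNA per cell cannot be told apart, and the part of these cells in the ratios of the interferon-induced genes was not tested.

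**Figure D3:**
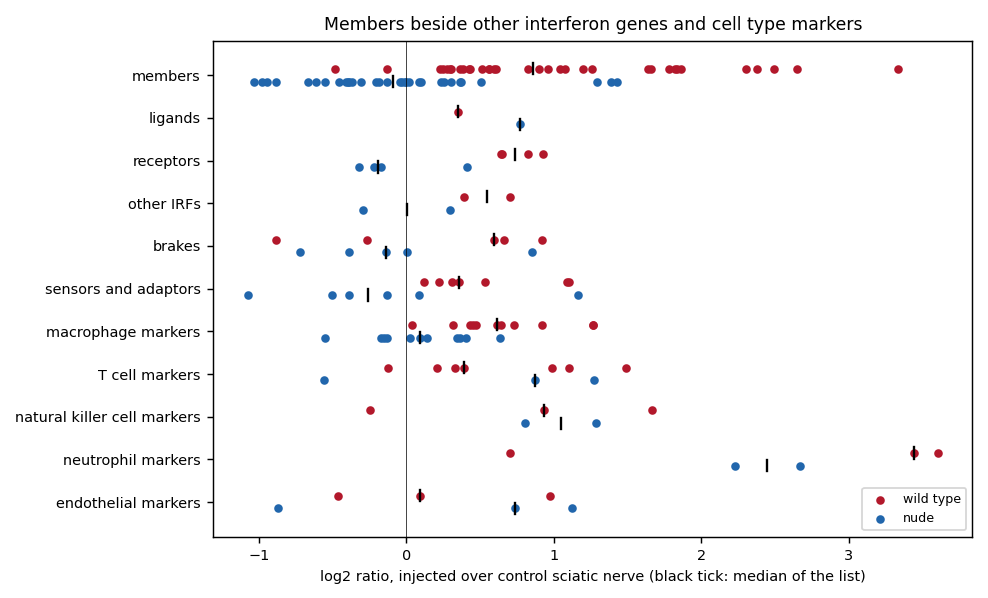
Log2 ratio of injected over control nerve (x axis) for the interferon-induced genes, lists of other genes of the interferon pathway and immune or vessel cell markers (y axis), each point 1 gene with a ratio, wild type in red and nude in blue, black ticks the medians. The wild-type median of the interferon-induced genes is 0.86, of the receptors 0.74 and of the macrophage markers 0.61.

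In the DRG of the wild-type rats the direction was the opposite one. Of 34 genes with a ratio 26 lay below 0 and 3 were at least 2-fold lower on the left, the injected side (8.82%), where 0.517% of 10831 genes were, and none was higher, beside 0.489%. The median was -0.20 beside 0.01 over all genes. Irf7 had levels of 2.57 on the left and 3.74 on the right (2.26-fold lower on the left), Oas1a of 0.04 and 1.15 (2.15-fold), and Usp18 of -0.42 and 0.66 (2.11-fold). Isg15 lay just within 2-fold, at 3.26 and 4.26, and Rsad2 was at 4.18 and 4.96. These 5 are among the 10 with the largest ratio in the nerve. In each of them the right wild-type DRG lay above the other 3 DRG arrays. The second Usp18 probe gave a log2 ratio of -0.94. After normexp background correction 0 genes were at least 2-fold lower, beside 0.0668% of all genes.

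In the nude DRG no gene of 28 was at least 2-fold higher or lower, beside 0.682% and 0.388% of 9537 genes, and the median was -0.04 beside 0.02. Oas1a had the largest ratio there, with levels of -0.39 on the left and 0.21 on the right. It was followed by Irgm, which was not well above background on the left and at -0.52 on the right, by Mx2 (6.88 and 6.51), Irf7 (2.32 and 2.06) and Ifi27 (log2 ratio 0.24). The median log2 ratio of the macrophage markers was -0.05 in DRG of wild-type and -0.06 in those of nude rats. The neutrophil markers S100a8, S100a9 and Camp were at 2.02, 1.66 and 2.22 in the nude DRG, where no interferon-induced gene was called, and at -0.13, -0.04 and 0.22 in the wild-type DRG. The part of these cells was not tested.

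**Figure D4:**
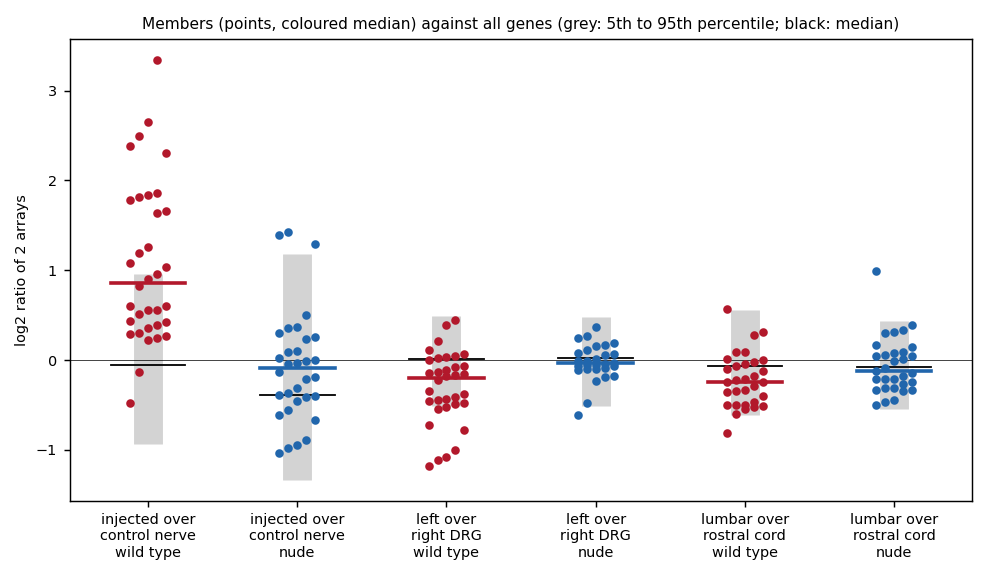
Log2 ratios of the interferon-induced genes (points, with their median as a coloured line) in the 6 comparisons of 2 arrays (x axis), over the 5th to 95th percentile (grey) and the median (black line) of all genes. The wild-type nerve median of 0.86 stands above the others, which lie between -0.24 and -0.04.

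In the dorsal cord no gene passed 2-fold in either rat type. Of 31 genes in wild type none was higher or lower in the lumbar cord, beside 0.913% and 0.831% of 11065 genes, and of 31 in nude none, beside 0.776% and 0.589% of 10689 genes. The medians were -0.24 in wild type and -0.12 in nude, beside -0.07 over all genes in each. Rsad2 had the largest ratio in both, with levels of 1.93 in the lumbar and 2.73 in the rostral cord of wild-type rats and of 3.58 and 2.58 in nude rats, so that its direction turned between the rat types. The nude ratio lay just under 2-fold and reached it under 3 of the 7 alternative settings. In wild type it was followed by Irf7 (0.88 and 1.48), Adar (-1.50 and -2.07), Gbp2 (2.34 and 2.88) and Isg15 (2.29 and 2.81), and in nude by Bst2 (0.06 and 0.57), Isg15 (2.77 and 3.23), Dhx58 (-1.01 and -0.57) and Sp100 (2.25 and 1.86). Isg15 was thus lower in the lumbar cord in both. The lumbar samples also held more RNA of Prx, a gene of peripheral myelin, at log2 ratios of 3.12 in wild type and 2.60 in nude. Neutrophil markers turned in the same arrays as Rsad2, with a median of -1.10 over 5 in wild type (S100a8 at -1.72) and of 0.82 over 3 in nude. The part of either in these values was not tested.

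Between the rat types, 29 genes had a value at all 6 sites. Eif2ak2 alone was higher in wild type at all 6 (3.45% of the 29, beside 2.17% of 8583 genes), and Ifitm2, Ifitm3 and Igtp were lower at all 6 (10.3%, beside 5.32%). The differences were small, with means over the sites of 0.26 for Eif2ak2, -0.30 for Ifitm2, -0.26 for Ifitm3 and -0.34 for Igtp on the log2 scale. Igtp differed most in the DRG, where nude rats were at 10.88 (left) and 10.72 (right) and wild-type rats at 10.01 and 10.09. In Eif2ak2 the second probe disagreed with the first, and under the mean over all probes no gene was higher at every site.

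In the injected nerve 28 of 32 genes were higher in wild type and 10 at least 2-fold, where 1.40% of 9313 genes were. The median was 0.58 beside 0.10 over all genes. In the control nerve 29 of 33 were lower in wild type, with a median of -0.39 beside -0.23. Against all genes that median was -0.16, and -0.07 after normexp. The share of all genes above or below 0 was counted at no site, so such counts have no baseline here. The difference of the nerve ratios between the rat types holds the differences at both nerves. For Usp18 the control nerve was at -0.86 in wild-type rats and at 0.32 in nude rats. In the right DRG 27 of 32 were higher in wild type (median 0.24 beside -0.01) and in the left 20 of 32 (0.06 beside 0.02). In the lumbar cord 6 of 31 were higher (-0.21 beside 0.02) and in the rostral cord 11 of 29 (-0.07 beside 0.00). Relative to all genes each of these medians kept its sign under the 7 alternative settings. The wild-type DRG and cord arrays lay on a different slide from the nude ones, so an effect of the slide cannot be told apart from rat type there.

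The DRG and cord labels were met by their markers: the summed signal of the DRG neuron list, genes not well above background entering at no less than the array's floor, was 619 to 726 times the median probe on the DRG arrays and at most 28.6 elsewhere, and that of the spinal cord list 215 to 320.1 on the cord arrays and at most 7.15 elsewhere. Summed in the same way, the sciatic nerve list was at 3218 in the control nerve of nude rats and 3019 in that of wild-type rats. In the injected nerves it was at 1645 in nude and 1794 in wild type. The right wild-type DRG was at 1812, so this list did not part the nerve arrays from those of the DRG. Across tissues the sciatic nerve had the highest mean level for most of the interferon-induced genes. Of the 35 measured genes 26 were ordered nerve, DRG, cord by their mean over 4 arrays, and 24 (68.6%) had all 4 cord arrays below all nerve and DRG arrays, where 19.1% of 12071 genes did. Both counts hold floors, since 10 of the 35 were not well above background on every array, among them Adar on no nerve array and Irf8, Ifih1, Dtx3l and Trim21 on no cord array. Of the 25 measured on all 12 arrays, 19 had that order and 18 (72%) had the cord lowest, beside 21% of 7950 genes. How often all genes take the order nerve, DRG, cord was not counted, so the counts of that order have no baseline. All 4 nerve arrays were above the other 8 in 8 genes (22.9%, beside 17.3% of all genes), namely Irf1, Ifitm1, Ifitm2, Ifitm3, Gbp2, Gbp5, Irgm and Parp14. The same held for the DRG in 2 genes, Rsad2 and Igtp (5.71%, beside 2.87%), and for the cord in 1, Cmpk2 (2.86%, beside 20%). In the other 24 genes no tissue was highest on all its arrays, and 16 of these were among the genes with the cord lowest. The count for the nerve rests on the scaling and on single arrays, being 4 after quantile normalization and 13 without the right wild-type DRG.

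The 3 Ifitm genes had the widest steps. Ifitm1 ranged from 6.10 to 7.91 in the nerves, from 5.31 to 5.62 in the DRG and from 2.03 to 2.33 in the cord, with a nerve mean 27.4-fold over the cord mean. Ifitm2 ranged from 8.54 to 8.83, from 6.71 to 7.04 and from 4.06 to 4.76, and Ifitm3 from 6.99 to 7.46, from 4.95 to 5.44 and from 2.53 to 3.17, 21.1-fold and 19.7-fold over the cord. These genes are close relatives, and whether their probes tell them apart was not tested. Irf1 ranged from 4.23 to 4.78 in the nerves, at most 3.32 in the DRG and 1.99 to 2.46 in the cord, and Irgm from 0.40 to 1.36 in the nerves against at most -0.24 elsewhere, its DRG and cord ranges overlapping.

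Neighbors on the chromosome, Rsad2 and Cmpk2 went different ways by tissue. Rsad2 was highest in the DRG (3.60 to 4.96), then the cord (1.93 to 3.58), then the nerve (-0.38 to 2.26), where the DRG and the cord were parted by 0.02 and the cord and the nerve overlapped. Cmpk2 was highest in the cord (3.25 to 3.37), then the DRG (1.77 to 2.23), then the nerve (0.44 to 1.89), the last pair overlapping. Igtp ranged from 10.01 to 10.88 in the DRG, 9.63 to 9.82 in the nerves and 9.12 to 9.40 in the cord. For Isg15, Oas1a and Mx1 the nerve range, which holds the injected wild-type array, enclosed the DRG range, as for Isg15 with 2.86 to 6.19 in the nerves, 3.26 to 4.26 in the DRG and 2.29 to 3.23 in the cord.

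**Figure D5:**
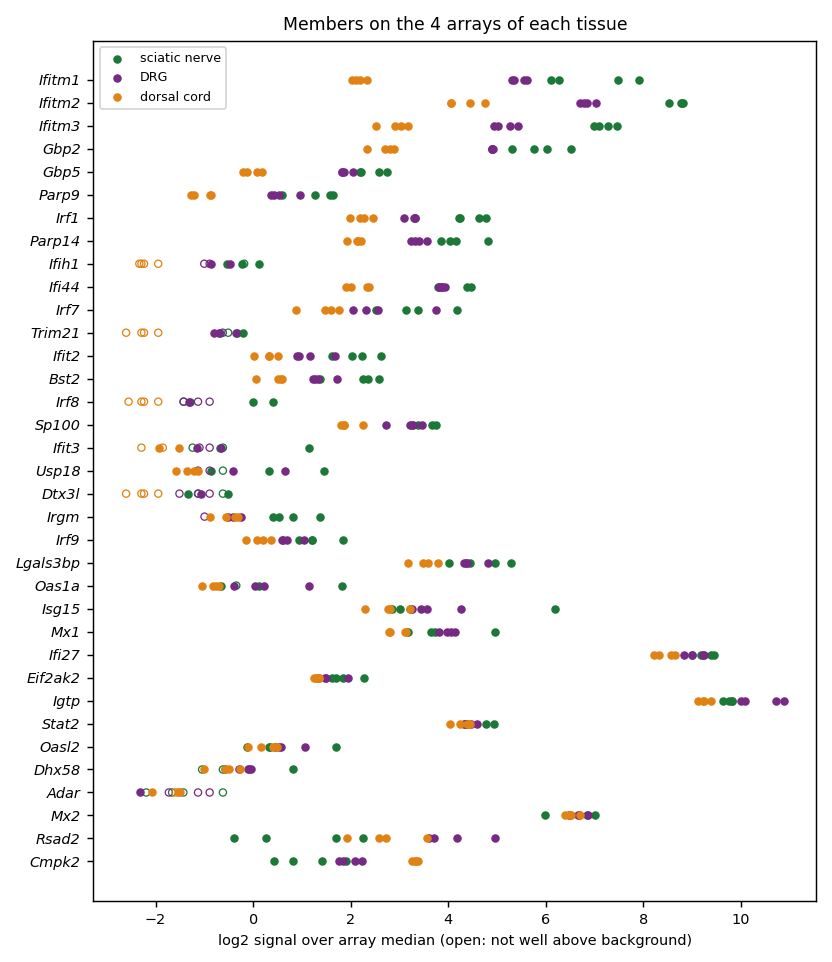
Levels (x axis, log2 signal over the array median) of the 35 measured genes (y axis, ordered by nerve mean minus cord mean) on the 4 arrays each of sciatic nerve (green), DRG (purple) and dorsal cord (orange). Open circles were not well above background. Ifitm1, Ifitm2 and Ifitm3 lead with nerve above DRG above cord, and Cmpk2 and Rsad2 end the order.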

How the data were processed

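Total RNA was hybridized to single-colour Agilent SurePrint G3 Rat arrays. For the intensity values, the authors scanned the slides and ran Feature Extraction, version 10.5 per the labels and 10.7.3.1 per the file headers, which subtracted background within each array. The other values are the deposited 0 or 1 flags of that software, for signal well above background, saturation (no spot) and outlying pixels. The deposited log2 values, which the authors made in GeneSpring GX, served as an alternative. The array design is on rn4, and none of its coordinates are printed.

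Outlier-flagged spots were removed, log2 signals were averaged per probe, and the array median was subtracted. Of 30367 probes 18006 were named through RefSeq accessions in a GRCr8 gene table, giving 15159 genes, each read by its brightest probe. Of the found members 31 had 1 probe and 6 had 2. A probe counted as measured where a fraction above 0.5 of its spots was well above background. No model was fitted. Values were named for the 10 members with the largest ratio in each nerve comparison, the 5 in each DRG and cord comparison, and up to 5 for each rat type direction and tissue; all other values belong to a list or to a second probe. The members and lists were chosen with earlier results of these data known. Normexp used the median spot signal, since the mean was not among the columns. On simulated arrays with 200 genes changed, at least 197 were recovered in each comparison. The arrays lay on 2 slides (8 and 4), and both arrays of each comparison shared one. Software was limma 3.58.1 (R 4.3.3) and Python 3.11.15 (matplotlib 3.10.9, pandas 2.3.3, numpy 2.4.6). Some pathway and marker genes are not reported here.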

Additional observations from a re-analysis of the deposited data

Results flagged for a closer look

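In 7 genes the injected-side ratio pointed in opposite directions in the 2 rat types and was at least 2-fold in one of them. The difference was not tested, since each ratio rests on 2 arrays. In the nerve, the wild-type minus nude difference on the log2 scale was 3.54 for Isg15 (3.34 and -0.21), 3.25 for Usp18 (2.30 and -0.94), 2.96 for Oas1a (2.50 and -0.46), 2.06 for Cmpk2 (1.08 and -0.98), 1.90 for Dhx58 (1.86 and -0.04) and 1.40 for Mx2 (0.36 and -1.04). Read against the median of all genes in the nude nerve, the nude ratio of Isg15 lies above it (0.18). Its sign is not settled, with -0.93 to 0.10 under the alternative settings. Those of Usp18, Cmpk2, Mx2 and Oas1a lie below that median (-0.56, -0.60, -0.65 and -0.08). Dhx58 was not well above background in the injected nude nerve. Its -0.04 is thus an upper bound, and on which side of the median its ratio lies is not known. In the DRG, Irf7 differed by -1.44 (-1.18 in wild type and 0.27 in nude).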

How the results depend on the processing

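Each count and each median of the group minus that of all genes was recomputed under 7 alternative settings, and the side comparisons also at 3-fold. Of 186 values, 157 kept their size and sign, 28 moved and 1 reversed; the causes were not tested. The group's median in the nude nerve against all genes, 0.30, reversed to -0.10 with no filter and no floor, where 5 genes were called higher and 3 lower and the difference of the nerve ratios became 0.82 in place of 0.60. Genes called lower in the nude nerve, 1, became 0 after scaling to the 75th percentile, after quantile normalization and at 3-fold, and 2 with the authors' normalized values; genes called higher became 0 at 3-fold. With normexp background correction the wild-type nerve held 8 genes called higher in place of 15, beside 1.97% of all genes. The group's median there was 0.54 above that of all genes, in place of 0.91. The nude nerve held 0 higher and 9 lower, beside 0.289% and 43.7% of all genes. The wild-type DRG held 0 lower in place of 3, as also at 3-fold. In the nude cord 1 gene, Rsad2, passed 2-fold after 75th percentile scaling, after quantile normalization and with the authors' values.

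Genes lower in wild type at every site, 3, became 1 after 75th percentile scaling and 0 after quantile normalization, with the authors' values and with normexp, and the 1 higher gene became 0 with normexp and with the mean over all probes. Without 1 site at a time, between 1 (as in the full set) and 4 genes were higher, 4 without the control nerve and 2 without the rostral cord, and 3 were lower each time. Genes highest in the nerve numbered 4 after quantile normalization, with the authors' values and with normexp, and in the DRG 1 with normexp and with the mean over all probes. Without 1 array at a time they ranged from 8 to 13 in the nerve and from 2 to 4 in the DRG, with 4 without the injected wild-type nerve, and stayed at 1 in the cord.

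The median signal of the dimmest array, that of the injected nude nerve, lies closest to background, so levels of weak genes there are bounds. No paired analysis was possible because each group holds 1 array.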
